A study of Eumeta variegata with 6 samples.

Results

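The sequences described here carry names of the small RNA machinery: Argonaute and PIWI proteins, Dicer and Drosha nucleases, and the helicases, tudor domain proteins and maturation factors that act with them. The rule for choosing them uses annotation text and no measured value. A sequence was taken when its NR or Swiss-Prot description, 2 protein databases searched by the authors, held a term for such a protein, and 23 of the 41283 assembled sequences did. The tissue was the head of Eumeta variegata, a bagworm moth, and its messenger RNA was sequenced in 3 male and 3 female libraries. The labels give tissue and sex for each library and no strain, age, stage or treatment. They do not say whether libraries of a sex came from separate animals, so p-values measure only the spread between these libraries, which may be technical.

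Small RNAs guide Argonaute proteins to matching transcripts. In flies, Drosha with its partner DGCR8 (called Pasha there) and then Dicer-1 cut microRNAs out of hairpin transcripts, and Dicer-2 cuts long double-stranded RNA into short interfering RNAs that defend against viruses. The third class, PIWI-interacting RNAs or piRNAs, needs no Dicer and silences transposons, above all in the germline. The silkworm Bombyx mori has the PIWI proteins Siwi and Ago3, which cut transposon transcripts in turn and so make further piRNAs, with Vasa, Spindle-E, Maelstrom and tudor domain proteins around them.

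Values are FPKM as deposited by the authors, fragments scaled by sequence length and library total, so that levels of different sequences can be set side by side. The library sums lay between 480295 and 492028 FPKM. The depth behind a value is unknown. The head label was checked against 21 neural names, whose mean levels ran from 0.24 to 34.7 FPKM with a median of 1.55. That median lay below the 2.14 FPKM of the whole table. A sequence called ELAV-like protein 4 (Swiss-Prot name Protein elav), an RNA-binding protein of neurons, had a mean of 17.1 FPKM in males (SD 0.9, n = 3) and of 17.8 in females (SD 0.7, n = 3). Sequences named Synapsin were low, with means of 0.35, 0.24 and 0.27 FPKM.

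The protein domains that the authors listed from Pfam, which the choice of members did not use, were set beside the names. All 4 sequences of the table with a Piwi domain, all 6 with a PAZ domain, which holds the end of the small RNA, and all 3 with a Ribonuclease III domain were among the 23. So were both sequences with the piRNA pathway germ-plasm component domain, which carry the name Maelstrom. Of the 14 sequences listed with the Pfam entry Tudor domain, 6 were among the 23 and 8 were not. Domains were listed for 20 of the 23, and 3 had no Pfam entry. Names came from the NR text for 13 sequences and from the Swiss-Prot text alone for 10. The terms zucchini, aubergine and small RNA 2'-O-methyltransferase matched 0 descriptions. No reference sequence was used here, so no bases, residues or coordinates are given.

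The small RNA machinery was expressed in heads of both sexes, with 15 of the 23 sequences above the 80th percentile of mean level in the table, and no sequence of it passed the test for a sex difference. Testing required a level of 1 FPKM or more in 3 or more libraries, which kept 20 of the 23 sequences and 35198 sequences in all. The median of their mean levels was 7.57 FPKM for all 23, against 2.14 FPKM for the whole table. No Pfam entry was listed for 31881 of the 41283 assembled sequences, but for only 3 of the 23. Levels were not compared with those of sequences with similar annotation, so these ranks need not be particular to the small RNA machinery. At a limma adjusted p below 0.05, 0 of the 20 were called, beside 7.11% of all sequences tested (4.40% higher in males and 2.70% higher in females). Without adjustment, 6 of the 20 had a limma p below 0.05, beside 23.3% of all. In 6 of the 20 every male lay above every female, beside 18.2% of all, and in 3 every female lay above every male, beside 12.0% of all. Their median log2 fold change on the log2(FPKM + 1) scale, males minus females, was 0.05, the same as the 0.05 of all sequences tested, and their median absolute value was 0.15, beside 0.31 for all. For 19 of the 20 the 95% interval of the log2 fold change lay within -1 and 1, and for 16 within -0.5 and 0.5. A level in a whole head cannot tell fewer cells of a type from less RNA per cell.

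Some names of neural and eye proteins also differed between the sexes, and their part in the differences described here was not tested. The summed level of 21 neural names was 147 to 156 FPKM in males and 148 to 155 in females, so the sexes overlapped. Of the 14 tested, 7 had a log2 fold change above 0 and 7 below, with a median of 0.001. Without the 2 CUGBP Elav-like names, RNA-binding proteins not limited to neurons and left out after the values were seen, the sums were 118 to 122 FPKM in males and 106 to 110 in females and did not overlap. Extended synaptotagmin-2, at a mean of 30.5 FPKM, was kept in these sums. In 6 of 14 tested neural names every male lay above every female, beside 18.2% of all, and in 1 every female lay above every male, beside 12.0%. In each direction 1 of the 14 was called (7.14%), beside 4.40% of all for males and 2.70% for females. Synaptotagmin 1 (TRINITY_DN14085_c0_g1_i12_2), a calcium sensor of synaptic vesicles, was higher in males by 0.48 on the log2 scale (limma adjusted p = 0.019), and the call in females was CUGBP Elav-like family member 1 (TRINITY_DN5098_c0_g1_i22_2). The summed level of 23 names holding opsin or arrestin was 134 to 137 FPKM in males and 114 to 125 in females, without overlap. The most abundant of these were Arrestin domain-containing protein 17 (TRINITY_DN841_c0_g1_i2_2, mean 30.1 FPKM) and Beta-arrestin-1 (20.9 FPKM), which are not visual arrestins. The highest opsin, Opsin-1, had a mean of 5.55 FPKM, so the sum does not measure eye content. The 1 call among the 21 tested, higher in males (4.76%, beside 4.40% of all), was Arrestin domain-containing protein 1 (TRINITY_DN17309_c0_g1_i6_1), also not a visual arrestin, and 0 opsins were called. With the library split described further on as a term, these 3 calls had limma adjusted p of 0.061, 0.072 and 0.068.

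**Figure D1:**
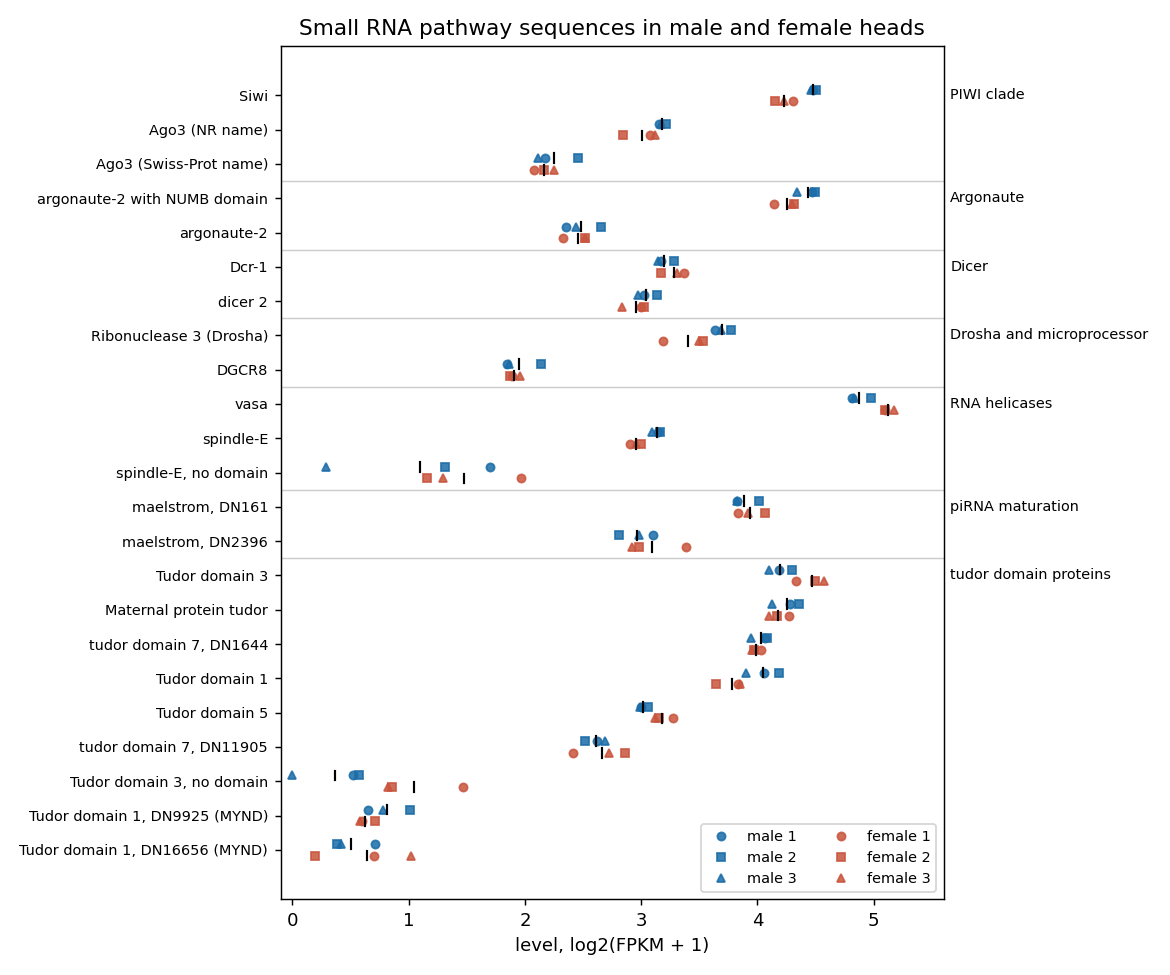
Level of each of the 23 sequences in each library, as log2(FPKM + 1). Blue points are the 3 males, red points the 3 females, and black bars the mean of a sex. Vasa stood highest, with its 3 females above its 3 males, and the 3 sequences at the foot lay mostly below an FPKM of 1.

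Of the 3 sequences of the PIWI clade, the most abundant was Siwi (TRINITY_DN21447_c0_g1_i59_1), the slicer that takes up primary piRNAs in the silkworm. Siwi had 21.2, 21.7 and 20.98 FPKM in males 1, 2 and 3 and 18.7, 16.8 and 17.7 in females 1, 2 and 3. The lowest male lay above the highest female. Its means were 21.3 ± 0.4 and 17.8 ± 1.0 FPKM (SD, n = 3 each), 1.201 times as high in males, with a log2 fold change of 0.25 (SE 0.06, 95% interval 0.11 to 0.39) and a limma adjusted p of 0.055, just above the threshold. The adjusted p ranged from 0.049 to 0.17 over the alternatives tried, and the call was made in 1 of them, without female 1 (log2 fold change 0.29). Within males 2 and 3 against female 2 the difference was 0.33, and within male 1 against females 1 and 3 it was 0.21, with no test for these small groups.

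Ago3, the partner of Siwi in piRNA amplification, was the name of the other members of the clade. The sequence with a Piwi and a PAZ domain (TRINITY_DN3510_c0_g1_i5_1, named by Swiss-Prot) had 3.52, 4.48 and 3.33 FPKM in males and 3.22, 3.49 and 3.76 in females. The sexes overlapped, with a difference of 0.08 on the log2 scale (SE 0.15, limma adjusted p = 0.80). TRINITY_DN4996_c0_g1_i4_2, named Ago3 by NR and with no Pfam domain listed, had 7.88, 8.29 and 7.99 FPKM in males and 7.42, 6.17 and 7.67 in females. All males lay above all females, yet the difference of 0.17 (SE 0.10) had a limma adjusted p of 0.38. Siwi was the higher of the PIWI proteins in every library, its lowest value of 16.8 FPKM standing above the highest of either Ago3 sequence, 8.29. Whether the 2 Ago3 sequences come from 1 gene cannot be told from the table.

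Argonaute-2 was the NR name of both sequences of the Argonaute group, which in animals bind microRNAs and short interfering RNAs. Swiss-Prot named TRINITY_DN18236_c0_g1_i1_1 after human AGO2, and the names alone do not tell which insect Argonaute either sequence is. TRINITY_DN18236_c0_g1_i1_1, whose 6 Pfam entries cover the Argonaute fold from its N-terminal to its Piwi domain, had 4.12, 5.30 and 4.44 FPKM in males and 4.01, 4.72 and 4.72 in females. These values overlapped fully (log2 fold change 0.03, SE 0.13, limma adjusted p = 0.92). TRINITY_DN1951_c0_g1_i45_2 had 21.1, 21.6 and 19.3 FPKM in males and 16.6, 18.9 and 18.7 in females. Its males lay above its females by a narrow gap, the difference being 0.18 on the log2 scale (SE 0.07, adjusted p = 0.20 by limma). Its level needs care, because the same assembled sequence is called Protein numb by Swiss-Prot and is the 1 sequence of the table with a NUMB domain. Numb is a cell fate protein, so the FPKM value covers Argonaute and Numb domains together and cannot be assigned to either.

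Both Dicer sequences were present in every library. Dcr-1, the microRNA enzyme of flies, was named by Swiss-Prot for TRINITY_DN8570_c0_g1_i8_1, which had 7.98, 8.75 and 7.84 FPKM in males and 9.31, 8.005 and 8.92 in females. The sequence named dicer 2 by NR (TRINITY_DN16179_c0_g1_i1_2), the enzyme of the antiviral branch in flies, had 7.11, 7.81 and 6.85 FPKM in males and 6.99, 7.12 and 6.14 in females. In each of them the sexes overlapped. The log2 fold change was -0.08 for Dcr-1 (95% interval -0.30 to 0.13, limma adjusted p = 0.64) and 0.09 for dicer 2 (-0.14 to 0.33, limma adjusted p = 0.63).

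The microprocessor, which frees microRNA hairpins in the nucleus, was represented by its nuclease and its RNA-binding subunit. Ribonuclease 3, the Swiss-Prot name of Drosha (TRINITY_DN5697_c0_g1_i14_2), had 11.4, 12.7 and 11.9 FPKM in males and 8.13, 10.55 and 10.3 in females. Every male lay above every female, and female 1 was the lowest library. The means were 12.0 ± 0.6 and 9.65 ± 1.33 FPKM, the log2 fold change was 0.29 (SE 0.11, 95% interval 0.03 to 0.56), and the limma adjusted p was 0.17. DGCR8 (TRINITY_DN15495_c0_g1_i2_1) had 2.59, 3.40 and 2.64 FPKM in males and 2.70, 2.66 and 2.87 in females, with overlapping sexes and a difference of 0.04 on the log2 scale (SE 0.16, adjusted p = 0.91 by limma). Male 2 was the highest library of this subunit.

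Vasa (TRINITY_DN8300_c0_g1_i2_2), a DEAD box helicase that helps to pass cut RNA from Siwi to Ago3 in silkworm cells, was the most abundant of the 23. Its mean of 31.1 FPKM exceeded that of 95.3% of the sequences in the table. It had 27.1, 30.5 and 27.4 FPKM in males and 33.2, 33.2 and 35.0 in females, so that every female lay above every male. The means were 28.3 ± 1.9 and 33.8 ± 1.1 FPKM, 1.19 times as high in females, with a log2 fold change of -0.25 (SE 0.06, 95% interval -0.39 to -0.10) and a limma adjusted p of 0.067. With libraries scaled by the median of ratios the log2 fold change was -0.31 and the sequence was called (limma adjusted p = 0.025). Over all alternatives the adjusted p ran from 0.025 to 0.19. Vasa and Siwi thus differed in opposite directions by a similar size, neither past the threshold. Their names end in different digits, by which the sex difference of all sequences also differed, as described further on.

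Spindle-E, a helicase with a tudor domain that flies need for piRNA production, was the name of the other helicases. The sequence with helicase and Tudor domains (TRINITY_DN3635_c0_g1_i7_2) had 7.84, 7.96 and 7.54 FPKM in males and 6.48, 7.0004 and 6.74 in females. Its males all lay above its females, the difference being 0.18 on the log2 scale (SE 0.08, adjusted p = 0.23 by limma), and its SD between libraries of a sex, 0.04 on the log2 scale, was the smallest of the 20 tested. TRINITY_DN6166_c0_g1_i2_2, with the same NR name and no Pfam entry, ran from 0.22 FPKM in male 3 to 2.91 in female 1. Its 95% interval of -1.43 to 0.68 was the widest of the 20.

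Maelstrom, an HMG-box protein required for transposon silencing in flies, was the Swiss-Prot name of both sequences of the maturation group. TRINITY_DN161_c0_g1_i21_1 had 13.2, 15.2 and 13.1 FPKM in males and 13.2, 15.7 and 14.1 in females. TRINITY_DN2396_c0_g1_i7_2 had 7.60, 5.995 and 6.91 in males and 9.46, 6.88 and 6.57 in females. The sexes overlapped in each (log2 fold changes -0.05 and -0.13, limma adjusted p = 0.79 and 0.68).

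Names of tudor domain proteins made up 9 of the 23, of which 6 were tested. Members of this family bind methylated arginines of PIWI proteins and hold the piRNA machinery together. Tudor domain-containing protein 3 (TRINITY_DN3149_c0_g1_i17_2) was the most abundant of the 9. Like the 3 untested sequences, it was listed without the Pfam entry Tudor domain. In vertebrates this protein works with a topoisomerase and is not known as a piRNA factor. It had 17.2, 18.6 and 16.2 FPKM in males and 19.1, 21.6 and 22.8 in females. Every female lay above every male, with a log2 fold change of -0.27 (SE 0.09, 95% interval -0.48 to -0.07, limma adjusted p = 0.12). Without the 2 sequences named Tudor domain-containing protein 3, 5 of 19 (26.3%) had an unadjusted limma p below 0.05, beside 23.3% of all.

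A sequence named Tudor domain-containing protein 1 by Swiss-Prot (TRINITY_DN2648_c0_g1_i11_2), a partner of PIWI proteins in the mouse testis, had 15.6, 17.2 and 13.98 FPKM in males and 13.2, 11.5 and 13.5 in females. These values did not overlap, although male 3 and female 3 lay close together (log2 fold change 0.27, SE 0.10, limma adjusted p = 0.16). Tudor domain-containing protein 5 (TRINITY_DN481_c0_g1_i8_2), needed for sperm formation in mice, had 6.997, 7.34 and 6.94 FPKM in males and 8.67, 7.89 and 7.66 in females, the reverse order of the sexes (-0.16, SE 0.08, limma adjusted p = 0.30). Maternal protein tudor (TRINITY_DN366_c0_g1_i13_1), the founding member of the family, a germ plasm protein in flies, had 18.1 ± 1.5 FPKM in males and 17.1 ± 1.1 in females, with overlapping sexes. Both sequences named tudor domain-containing protein 7, a protein of germ granules and the lens in mice, also overlapped, at 15.4 ± 0.8 against 14.8 ± 0.4 FPKM (TRINITY_DN1644_c0_g1_i4_2) and 5.10 ± 0.36 against 5.40 ± 0.98 (TRINITY_DN11905_c0_g1_i10_1).

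The 3 sequences too low to be tested were all of the tudor group. A second sequence named Tudor domain-containing protein 3 (TRINITY_DN8618_c0_g1_i1_2), with no Pfam entry, had 0.43 and 0.48 FPKM in males 1 and 2, was listed at 0 in male 3, and had 1.76, 0.81 and 0.77 in females. The others, TRINITY_DN16656_c0_g1_i1_2 and TRINITY_DN9925_c1_g2_i1_1, carry the Swiss-Prot name Tudor domain-containing protein 1. The only Pfam domain listed for them is a MYND finger, a zinc-binding fold, which does not settle whether the name is right. They reached at most 1.03 and 1.02 FPKM.

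**Figure D2:**
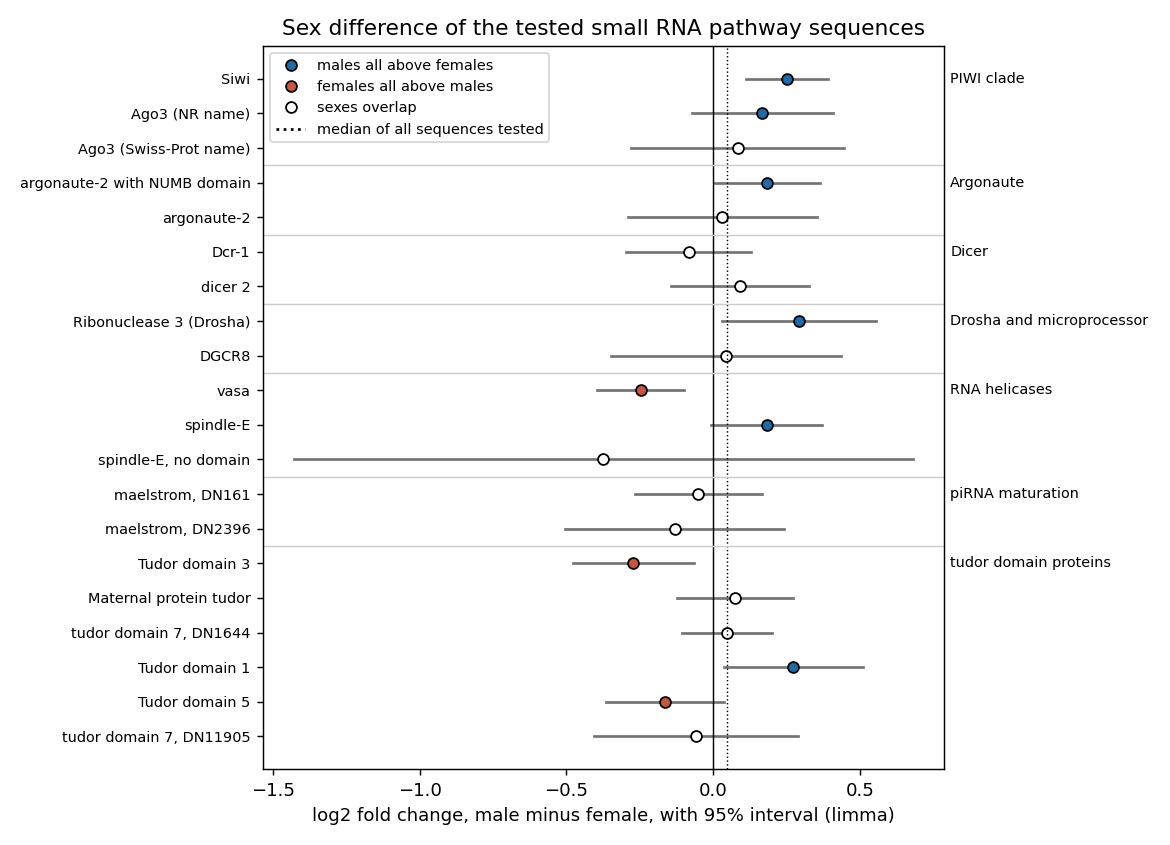
Log2 fold change (males minus females) of the 20 tested sequences on the log2(FPKM + 1) scale, with the 95% interval from limma. Filled points mark sequences whose sexes did not overlap. Siwi (0.25) and Vasa (-0.25) had intervals clear of 0 on opposite sides, but neither passed the adjusted threshold.

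In order of level, Vasa stood alone at the top, its lowest library (27.1 FPKM) above the highest library of any other member. Next came Siwi, the Argonaute sequence with Numb domains, Tudor domain-containing protein 3 and Maternal protein tudor, with mean levels of 19.5, 19.4, 19.3 and 17.6 FPKM. The ranges of these overlapped, so their order is not resolved. The core nucleases lay lower, with mean levels of 10.8 FPKM for Drosha, 8.47 for Dcr-1 and 7.003 for dicer 2, and the lowest Dcr-1 library (7.84 FPKM) lay just above the highest dicer 2 library (7.81 FPKM). DGCR8, at a mean of 2.81 FPKM, was the lowest of the tested members that had a Pfam entry. All tested members but TRINITY_DN6166_c0_g1_i2_2 varied by at most 1.58 times between the lowest and the highest of the 6 libraries.

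Replicate libraries agreed closely for most members. The median SD between libraries of a sex was 0.11 on the log2 scale for the 20 tested, against 0.30 for all sequences tested. Levels differ between these sets, and the spread falls with level. Compared with sequences in the same 0.5 log2 step of mean level, 13 of the 20 had an SD below the median of their step. All 20 had a log2 fold change within the 5th to 95th percentile of their step.

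**Figure D3:**
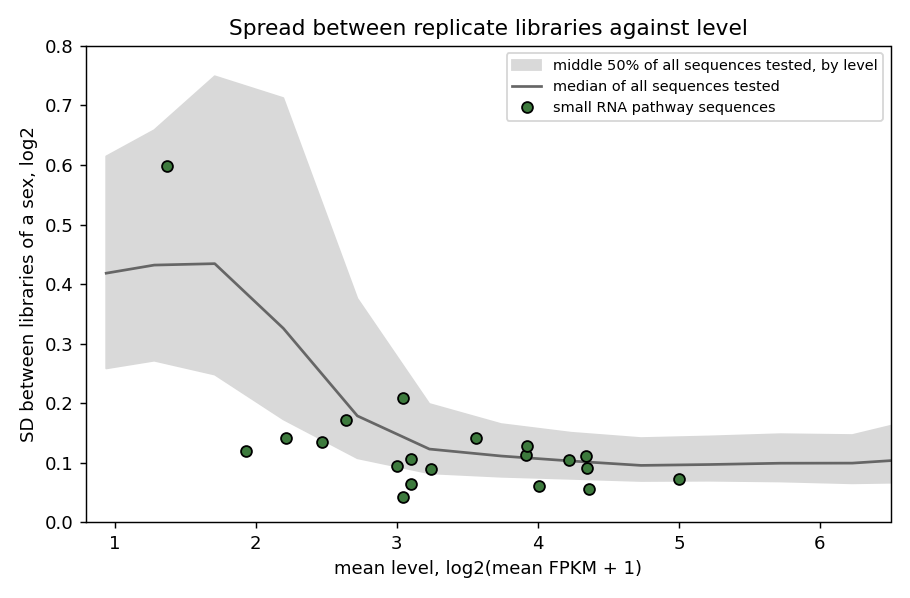
SD between libraries of a sex (pooled over both sexes, log2 scale) against mean level for the 20 tested sequences (green) over the median and the middle 50% of all sequences tested at the same level (grey). The lone point near 0.6 is the Spindle-E sequence with no Pfam entry.

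The libraries also differ by a split that follows the last digit of the sequence names, 1 or 2, whose meaning is not given in the sources used here. Of all tested sequences ending in 1, 68.6% were higher in males 2 and 3 and female 2 than in male 1 and females 1 and 3 of the same sex, and of those ending in 2, 30.7% were. No label gives this grouping of the libraries, so these shares describe it and do not test it. Among the members, 5 of 8 with ending 1 and 6 of 12 with ending 2 were higher in the former libraries. The shift was small, with a median of 0.05 and 0.01 on the log2 scale, beside 0.10 and -0.10 for all sequences of each ending. With this split as a term, 0 of the 20 were called. The log2 fold changes of Siwi and Vasa were then 0.27 (limma adjusted p = 0.10) and -0.26 (limma adjusted p = 0.14). Males and females were fully separate for 1 of the 8 members with ending 1 and for 8 of the 12 with ending 2, beside 31.5% and 28.6% of all tested sequences of each ending. The median log2 fold change between the sexes was 0.15 for all with ending 1 and -0.065 for all with ending 2. For the members it was 0.04 and 0.07. Of all with ending 1, 5.59% were called higher in males and 1.96% in females, and with ending 2, 3.03% and 3.56%. Siwi ends in 1 and Vasa in 2, and the part of the ending in their opposite directions was not tested.

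Maelstrom and tudor domain-containing protein 7 each had a copy with either ending. The maelstrom copy ending in 1 took 58.3% of the summed FPKM of the pair in female 1 and 63.4% in male 1, and 71.7% in male 2 and 69.6% in female 2. Male 3 (65.6%) and female 3 (68.3%) lay between. For tudor domain-containing protein 7 the share of the copy ending in 1 ran from 22.1% in female 1 to 29.9% in female 2. Summed over the copies, the maelstrom level ran from 20.1 to 22.7 FPKM and that of tudor domain-containing protein 7 from 19.6 to 20.98 FPKM across the 6 libraries.

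**Figure D4:**
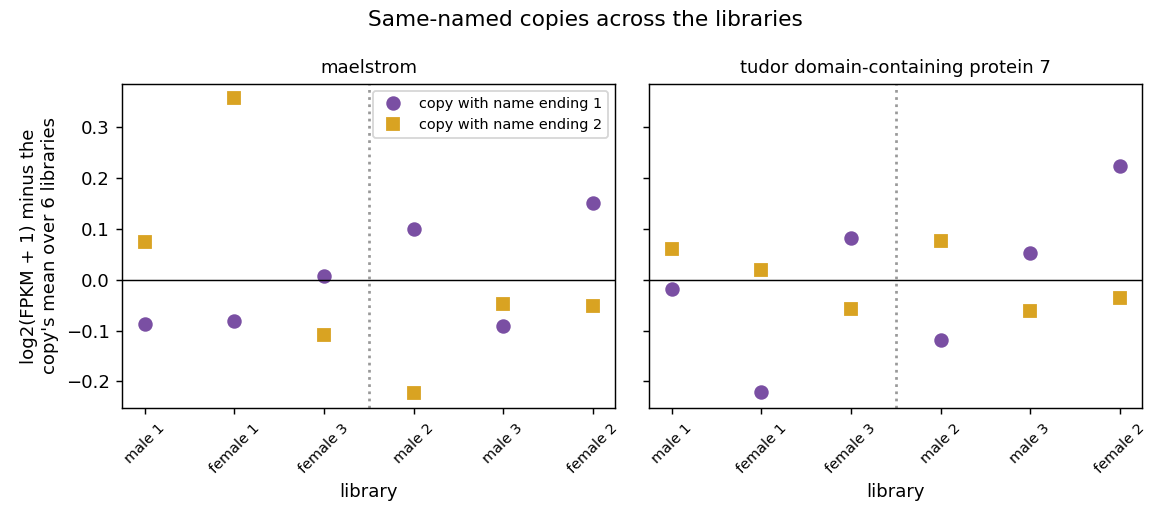
Level of each same-named copy in each library minus its own mean over the 6 libraries, on the log2(FPKM + 1) scale. The dotted line separates male 1, female 1 and female 3 from male 2, male 3 and female 2. Female 1 stands at 0.36 for the maelstrom copy ending in 2 and at -0.22 for the tudor domain-containing protein 7 copy ending in 1.

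Other genes of the small RNA pathways were taken from a list of names that the rule for members does not hold. It matched 36 sequences, among them CCR4-NOT subunits 10 and 11, whose names begin like that of subunit 1 and which were kept. Of the 36, 7 are of another kind, since the letters TRAX also occur in pentraxin and rhino in rhinoceros and Rhinolophus. Of the remaining 29, 28 were tested, 0 were higher in males and 2 (7.14%) higher in females, beside 4.40% and 2.70% of all, and the median log2 fold change was 0.0017, against 0.05 for all sequences tested. Without adjustment, 6 of the 28 (21.4%) had a limma p below 0.05, beside 23.3% of all. The misleading matches gave the 1 call in males, Neuronal pentraxin-2 (TRINITY_DN19007_c0_g1_i1_1, log2 fold change 1.11).

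The calls in females were a helicase and a deadenylase scaffold. A sequence named Putative helicase MOV-10 (TRINITY_DN6118_c1_g2_i1_1), of the family of the fly piRNA helicase Armitage, had 2.70, 3.28 and 3.09 FPKM in males and 4.97, 5.41 and 5.29 in females. Its sexes lay well apart, the difference being -0.63 on the log2 scale (SE 0.12, adjusted p = 0.035 by limma). A second MOV-10 sequence (TRINITY_DN8856_c0_g1_i4_1) had a log2 fold change of 0.06. CCR4-NOT transcription complex subunit 1 (TRINITY_DN3042_c0_g1_i20_1), the scaffold of the complex that shortens tails of microRNA targets, had 31.8, 34.8 and 34.2 FPKM in males and 43.0, 49.8 and 56.2 in females (-0.54, SE 0.10, limma adjusted p = 0.030). Another sequence of that name (TRINITY_DN2828_c0_g1_i5_2) had the same log2 fold change of -0.54 with a limma adjusted p of 0.065. Both calls ended with the library split as a term (limma adjusted p = 0.069 and 0.067) and, leaving out libraries singly, the call of subunit 1 was made when female 1 was the library left out and in no other case, and that of MOV-10 in no case.

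Partners of the core proteins were among the remaining names. Protein Gawky (TRINITY_DN316_c0_g1_i10_2), which binds Argonaute to silence microRNA targets, had 23.7 ± 1.3 FPKM in males and 21.4 ± 0.6 in females. Exportin-5 (TRINITY_DN7664_c0_g1_i1_1), which carries microRNA precursors out of the nucleus in mammals, had 30.7 ± 2.0 and 31.8 ± 1.4. The sequence named after the silkworm pre-piRNA exonuclease Trimmer (TRINITY_DN8306_c0_g1_i2_1) had 11.6 ± 0.3 and 9.94 ± 1.198. The most abundant of the list, the decay helicase me31b (TRINITY_DN2626_c0_g1_i26_1), had 139 ± 1 and 131 ± 7. None of these passed the limma test (adjusted p of 0.21 to 0.71).

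Among the 8 sequences with a Pfam Tudor domain outside the rule, all tested, 1 was called, beside 7.11% of all sequences tested. Without adjustment, 2 of the 8 had a limma p below 0.05, beside 23.3% of all. The called sequence was A-kinase anchor protein 1 (TRINITY_DN11167_c0_g1_i85_2), a mitochondrial scaffold. It had 41.7 ± 1.7 FPKM in the males and 51.5 ± 1.0 in the females. The difference was -0.30 on the log2 scale (SE 0.05, limma adjusted p = 0.019). This call ended with the library split as a term (limma adjusted p = 0.063) and was kept in 2 of the 6 fits that left out a library. These neighbours were singled out after their values were seen. Tudor and KH domain-containing protein homolog (TRINITY_DN1447_c0_g1_i11_1), the mitochondrial anchor of Siwi known as Papi in the silkworm, had 29.8 ± 1.1 and 27.3 ± 2.0 FPKM. A sequence named Mitochondrial cardiolipin hydrolase (TRINITY_DN2798_c0_g1_i2_1), the vertebrate name of the Zucchini nuclease, had 12.6 ± 1.4 and 14.01 ± 2.35 FPKM.

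Transposons are the transcripts on which piRNAs act. Sequences with transposon names numbered 1147, and 927 were tested. Of these, 31 were higher in males (3.34%) and 19 higher in females (2.05%), against 4.40% and 2.70% of all, and the median log2 fold change was 0.04. The summed level was 5080 to 5275 FPKM in males and 4895 to 5135 in females, so the sexes overlapped. The largest of the 3 male calls with the smallest p was a retrovirus-related Pol polyprotein (TRINITY_DN1247_c0_g1_i6_2) with 13.4, 16.5 and 20.3 FPKM in males and 2.79, 3.67 and 3.68 in females. In the opposite direction another Pol sequence (TRINITY_DN11319_c1_g1_i9_2) had 2.16 ± 0.06 FPKM in males and 8.59 ± 0.10 in females.

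Germline cells are another place where the piRNA machinery is used, so names of germline and gonad genes were listed beside it. They matched 39 sequences with summed levels of 158 to 173 FPKM in males and 160.0 to 170 in females. Of the 28 tested, males had the higher level in 2 calls (7.14%) and females in 1 (3.57%), beside 4.40% and 2.70% of all. The male calls were a Chorion peroxidase (TRINITY_DN1742_c0_g1_i11_2, log2 fold change 0.83) and a 63 kDa sperm flagellar membrane protein (TRINITY_DN2811_c0_g1_i1_1, 0.76), and the female call was Spermatogenesis-associated protein 20 (TRINITY_DN15935_c0_g1_i8_1, -0.38). Both male calls were kept with the library split as a term and in all 6 fits that left out a library, whereas the female call ended with the split (limma adjusted p = 0.070) and was kept in 1 of the 6. With the replicate number as a term, the Chorion peroxidase call ended (limma adjusted p = 0.057) and that of the sperm flagellar protein was kept (limma adjusted p = 0.042). Names of this kind come from other species and do not by themselves place a transcript in a gonad. Of the germline factor Nanos, sequences were low: TRINITY_DN23703_c0_g1_i1_1 and TRINITY_DN23887_c0_g1_i1_2 reached at most 1.73 and 1.89 FPKM, and TRINITY_DN6418_c0_g1_i3_1 had 2.12 ± 0.41 FPKM in males and 0.56 ± 0.23 in females (limma adjusted p = 0.066). The names oskar and bag-of-marbles matched 0 descriptions.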

How the data were processed

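RNA from male and female heads was sequenced (3 libraries each), grouped by the sex in the labels. Stranded mRNA libraries were made from Trizol-extracted RNA, per the labels' protocols. Trimmomatic, HTSeq and R 3.2.0 are named, without roles, per the submitters' processing notes. No source used here states the aligner or the filters. FPKM values per assembled sequence were calculated and deposited by the authors. Each library holds 86 to 155 positive values below 1e-06 FPKM, far less than a whole read can give, so the values rest on estimated reads, depth is unknown, and no count test or counting interval was used. Per-sequence FPKM also depends on how the assembly split or joined transcripts.

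Sequences with FPKM of at least 1 in at least 3 libraries were tested with limma 3.58.1 in R 4.3.3 on log2(FPKM + 1), with a mean-variance trend, two-sided, Benjamini-Hochberg over all 35198, threshold 0.05. The fit was tested on simulated data. Members, lists and tests were chosen with earlier results of these data known. Named with values were the Argonaute, PIWI, Dicer and microprocessor sequences, the most abundant member of each role and any called member; the remaining members were named for completeness after their values were seen. Alternatives were other pseudocounts, filters and scalings, robust moderation, a replicate block, the library split, leaving out each library, and NR names alone.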

Additional observations from a re-analysis of the deposited data

How the results depend on the processing

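Depth is unknown, so it cannot be said how much counting error limits low sequences, and 3 libraries a sex limit every comparison. The count of called members stayed at 0 under every alternative but 2: it was 1 with median-of-ratios scaling (Vasa, higher in females) and 1 without female 1 (Siwi, higher in males), so that it ran from 0 to 1 when a library was left out. With NR names alone it was 0 of 12. Over the alternatives and the within-split values, 11 of the 20 tested members kept 1 sign and 9 took both.

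Whether the replicate numbers pair the libraries cannot be told from these data, since the correlations are weak. Deviations of same-numbered males and females correlated at 0.11, 0.12 and -0.05 across sequences. Males 1 and 2 correlated best with the female of the same number, and male 3 with female 2. With the replicate block, 0 members, 631 of all sequences, 1 of the other pathway list, 12 transposon names and 1 gonad name were called, against 0, 2501, 3, 50 and 3 without it. The other pathway list is counted in this paragraph with its 7 misleading matches. With the library split as a term, these were 1136 of all sequences, 1 of the other pathway list, 21 transposon names and 2 gonad names, both higher in males. That 1 was Neuronal pentraxin-2, a misleading match (limma adjusted p = 0.017), and without such matches the list had 0 calls with the split. Leaving out a library gave 822 to 1776 of all sequences (822, 837 and 910 without males 1, 2 and 3, 1107 without female 2), 1 to 2 of the other pathway list, 16 to 32 transposon names (16, 18 and 19 without males 1, 2 and 3, 32, 18 and 22 without females 1, 2 and 3) and 2 to 3 gonad names. The other pathway list had 5 calls with median-of-ratios scaling and 5 with quantile normalization, 4 of them in females each time. Over all sequences the split was 1549 males to 952 females, 1329 to 1258 with median-of-ratios scaling and 1353 to 1193 with quantile normalization.

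Log2 fold changes that changed sign were past the threshold in no case, and that of TRINITY_DN6166_c0_g1_i2_2 was the largest in size of the 20 (-0.37). The argonaute-2 sequence TRINITY_DN18236_c0_g1_i1_1 had -0.0212 with median-of-ratios scaling, -0.0256 with quantile normalization, -0.0163 with the library split and -0.0541 to 0.10 without a library. DGCR8 had -0.0042 with median-of-ratios scaling and -0.0502 to 0.0957 without a library. The tudor domain-containing protein 7 sequence TRINITY_DN1644_c0_g1_i4_2 had -0.0117 with median-of-ratios scaling and -0.0126 with quantile normalization. Without a library, Ago3 (TRINITY_DN3510_c0_g1_i5_1) ran from -0.0187 to 0.15, TRINITY_DN6166_c0_g1_i2_2 from -0.67 to 0.0304, the maelstrom copies from -0.11 to 0.0121 and from -0.22 to 0.015, and TRINITY_DN11905_c0_g1_i10_1 from -0.18 to 0.0405. The cause of these changes was not tested.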
